A study of Sus scrofa with 23 samples.

Results

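The genes described are 10 that carry or control proton and ammonia transport in the intercalated cells of the kidney, chosen by symbol out of 26687 genes in the annotation used by the authors. They are 5 subunits of the vacuolar proton pump (ATP6V1B1, ATP6V0A4, ATP6V1G3, ATP6V0D2 and ATP6V1C2), the anion exchangers SLC4A1 and SLC4A9, the ammonia channels RHCG and RHBG, and the transcription factor FOXI1. They were measured by sequencing of total RNA, depleted of ribosomal RNA, from the kidney cortex of 23 newborn pigs, each library from another pig. The labels give 11 pigs as CFTR-/- (CF), 6 as CFTR+/- (HET) and 6 as wild-type (WT), and the 12 WT and HET libraries together are called non-CF. CFTR-/- piglets came from matings of CFTR+/- pigs and were studied shortly after birth, and the labels state neither sex nor litter. The study asked what loss of the anion channel CFTR does to the kidney, and here that question is put to the acid-base genes of the intercalated cell.

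Intercalated cells lie among the principal cells of the connecting tubule and collecting duct and set the final acid and base content of the urine. Type A cells pump protons into the lumen with a vacuolar ATPase and return bicarbonate to the blood through the anion exchanger AE1 (SLC4A1), while type B cells place the pump on the blood side and secrete bicarbonate through pendrin (SLC26A4). The pump is built from a cytosolic V1 sector that splits ATP and a V0 sector in the membrane that passes protons, and several of its subunits exist in a form used by most cells and a form enriched in intercalated cells. Mutations of ATP6V1B1, ATP6V0A4, SLC4A1 and FOXI1 cause distal renal tubular acidosis.

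The libraries held 32901281 to 52952273 estimated counts. Every one of the 10 genes passed the filter on low counts, and the lowest value of any of them was 160 counts, for ATP6V1G3. Genes of cortex were abundant, with a mean of 4905 CPM (counts scaled to the size of the library) for LRP2 (megalin of the proximal tubule) and 52.8 CPM for AQP2 (the water channel of principal cells). CFTR RNA went against the genotype labels, with 60 to 178 counts in libraries labelled WT, 442 to 699 in those labelled HET and 614 to 1040 in those labelled CF, so genotype is given throughout as the label of the library. The libraries of pigs numbered 1 to 6 and 12 to 18 lay apart from those numbered 7 to 11 and 19 to 23 on the second axis of a multidimensional scaling, which held 10.6% of the variance. The first axis (17.1%) split the libraries as well, into 13 with EIF1AY, a Y-linked gene, at 15.2 to 25.9 CPM (2 WT, 5 HET and 6 CF) and 10 with it at 0 to 0.0963 CPM (4 WT, 1 HET and 5 CF). With EIF1AY as a covariate the calls among the 10 genes were 0 for each pair of labels and 3 between the number sets. Over all genes they were 73 of 21434 for CF against WT, 1 for HET against WT, 1 for CF against HET and 2163 of 22129 between the number sets. The 13 earlier-numbered pigs were 6 CF, 3 HET and 4 WT, and the 10 later-numbered pigs 5 CF, 3 HET and 2 WT. The labels do not say what the numbers stand for.

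Compared per length, in TPM (transcript abundance scaled to length and library), the B1 subunit of the pump stood far above the other genes. ATP6V1B1, the kidney form of a subunit that helps to split ATP, had a level of 80.7 ± 17.9 TPM (SD, n = 23) and exceeded the gene next in order in 23 of 23 libraries. RHCG (19.6 ± 5 TPM), ATP6V0A4 (19 ± 3.45 TPM) and ATP6V1C2 (18.9 ± 3.51 TPM) followed, and their order was not fixed, since RHCG was above ATP6V0A4 in 13 of 23 libraries and ATP6V0A4 above ATP6V1C2 in 12. ATP6V1C2 was above ATP6V1G3 (13.3 ± 4.44 TPM) in all 23 libraries. ATP6V0D2 (12.3 ± 3.44 TPM), RHBG (9.41 ± 2.28 TPM), SLC4A9 (7.35 ± 2.37 TPM), FOXI1 (6.51 ± 1.76 TPM) and SLC4A1 (6.46 ± 1.45 TPM) came next, and each neighbouring pair from ATP6V1G3 down overlapped in its range. Within this tail the upper gene of a pair was above the lower in 11 to 19 of 23 libraries. Of the 10 genes 8 had a coefficient of variation between pigs above the median of all genes. Their median coefficient of variation of CPM was 24%, against 17.7% over the 20921 genes tested, and it ran from 16.5% for ATP6V0A4 to 29.7% for ATP6V1G3.

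Of the 10 genes, ATP6V1B1 and SLC4A1 alone held a forkhead word in the 250 bases upstream of an annotated start, and their sequences are shown because FOXI1, the forkhead factor of these cells, is a member as well. The sequence comes from the Sscrofa11.1 genome and starts from its RefSeq annotation. It is written 5′ to 3′ on the strand of the gene, and capitals mark the forkhead word TGTTTAC, its extension TGTTTACNGTCAAC (N is any base) and AGATAA, a word of GATA factors. ATP6V1B1 lies on the minus strand of chromosome 3, at chr3:71560102-71591885, and its window is chr3:71591886-71592135. SLC4A1 lies on the plus strand of chromosome 12, at chr12:18957813-18975266, and has 2 annotated starts. The window shown is that of the internal start at 18961977, in the intron after exon 3 of the longer model, and is chr12:18961727-18961976.
ATP6V1B1: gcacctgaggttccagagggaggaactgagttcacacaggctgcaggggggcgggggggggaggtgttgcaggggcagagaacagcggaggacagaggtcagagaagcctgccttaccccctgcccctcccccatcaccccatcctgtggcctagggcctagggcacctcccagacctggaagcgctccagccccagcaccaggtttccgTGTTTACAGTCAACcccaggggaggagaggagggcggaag
SLC4A1 internal start: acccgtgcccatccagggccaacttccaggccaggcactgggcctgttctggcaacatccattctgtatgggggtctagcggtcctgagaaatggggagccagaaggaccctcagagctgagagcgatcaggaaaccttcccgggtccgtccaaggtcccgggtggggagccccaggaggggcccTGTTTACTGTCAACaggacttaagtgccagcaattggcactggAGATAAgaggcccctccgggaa
The word TGTTTACNGTCAAC began 40 bases before the ATP6V1B1 start and 65 bases before the internal SLC4A1 start. It is the stretch that these windows share from TGTTTAC on up to a second mismatch. Searched on both strands, it was present in 2 of 45994 upstream windows of the annotation (0.00435%), and those were these 2. The word was thus composed from these windows, so its rarity is a description only. Its first part, TGTTTAC, was in 2.19% of all windows. The variant TGTTTGC was in 2.98% and the variant TGTTTAT in 2.9%. At least one of the 3 was in 7.74% of all windows. AGATAA was in 7.2% of all windows. TGTTTAC and AGATAA are not particular to the SLC4A1 window shown. No binding was measured here.

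Between genotype labels none of the 10 genes passed the main test, which had no term for the number set. With that term ATP6V1C2 passed for CF against non-CF (adjusted p = 0.049, edgeR, where 148 of 20921 genes passed). For CF against non-CF 0 of 10 had a Benjamini-Hochberg adjusted p under 0.05 by the quasi-likelihood test of edgeR, where 0.349% of all 20921 genes tested did, and 2 of 10 had an unadjusted p under 0.05, against 13.7% of all genes. Of the other tools, limma-voom called 0 of the 10 (0.22% of all genes) and DESeq2 called 2, ATP6V1B1 and ATP6V1C2, where it called 2.41% of all genes. The median log2 fold change of the 10 genes was -0.0042, beside -0.00052 for all genes, with 5 genes higher and 5 lower. The genes with an unadjusted p under 0.05 were ATP6V1B1, higher in CF, and ATP6V1C2, lower in CF. In bulk tissue, fewer cells of a type and less RNA per cell cannot be told apart, and the p-values measure the spread between these libraries.

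**Figure D1:**
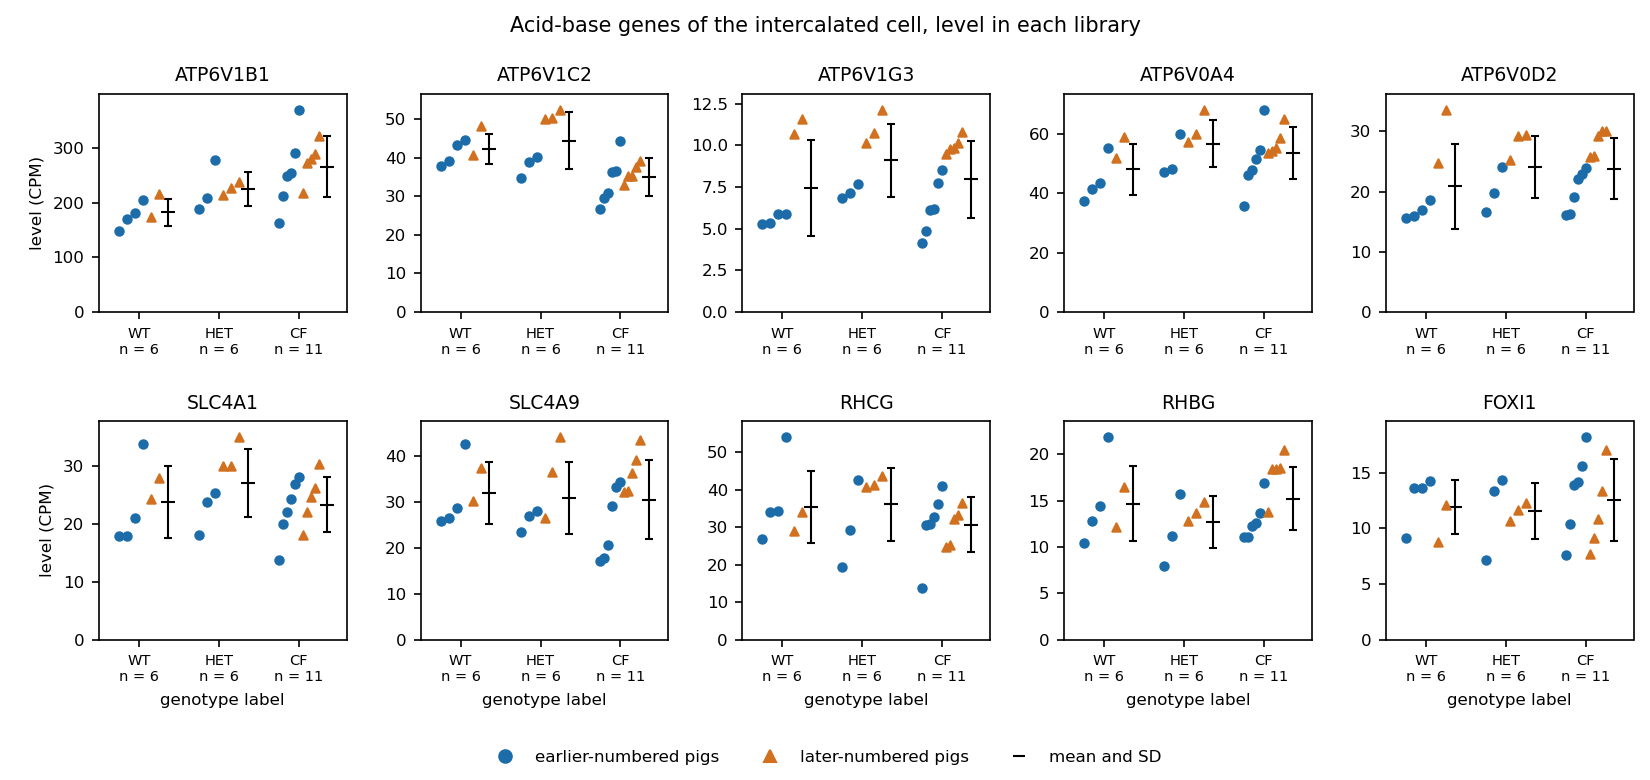
Level in CPM (vertical axes) of each gene in every library, by genotype label (horizontal axes, 6 WT, 6 HET and 11 CF). Circles are earlier-numbered and triangles later-numbered pigs, and bars give the mean and SD. ATP6V1B1 reached 370 CPM in the CF group and ATP6V1C2 was as low as 26.7 CPM there, while ATP6V1G3 and ATP6V0D2 lay higher in triangles than in circles.

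ATP6V1B1 was at 148 to 216 CPM in libraries labelled WT (median 178), at 188 to 279 CPM in those labelled HET (median 220) and at 163 to 370 CPM in those labelled CF (median 273). The CF libraries lay high and the ranges overlapped, with 10 of 11 CF libraries above the median of the non-CF libraries and 5 of 11 above the highest of them. The mean was 265 ± 56.1 CPM (SD, n = 11) for CF and 204 ± 35.0 CPM (SD, n = 12) for non-CF, a log2 fold change of 0.38 (SE 0.11, adjusted p = 0.103, edgeR). The difference was of like size in both number sets, at 0.39 among earlier-numbered pigs, where CF held 163 to 370 CPM and non-CF 148 to 279 CPM, and at 0.38 among later-numbered pigs, where CF held 218 to 322 CPM and non-CF 173 to 237 CPM. DESeq2 gave a log2 fold change of 0.38 with an adjusted p of 0.042. The adjusted p was 0.131 by limma-voom, 0.182 by the Mann-Whitney U test and 0.255 by edgeR with the erythroid level as a covariate. Against WT alone the CF libraries were higher by 0.55 (SE 0.13, adjusted p = 0.0579, edgeR), with 9 of 11 above the highest WT library. This adjusted p fell under the threshold without any of 3 libraries, to 0.041 without WT23, 0.031 without CF4 and 0.022 without CF6, and to 0.0479 with the number set as a term. It stayed above the threshold at 0.064 by limma-voom, 0.176 by the Mann-Whitney U test and 0.0914 with EIF1AY as a covariate. With the erythroid level as a covariate it was 0.148, and among fits without single libraries it reached 0.136. HET libraries lay between, at 0.31 above WT (SE 0.14, adjusted p = 0.623) with 6 of 6 above the WT median, and CF at 0.23 above HET (SE 0.13, adjusted p = 0.558). These comparisons share libraries. Of 8 proximal tubule genes 7 lay higher and 1 lower for CF against non-CF, with 0 called by edgeR, DESeq2 or limma-voom and 1 at an unadjusted p under 0.05, CUBN (cubilin, a receptor for filtered protein), at 0.24 (SE 0.088, adjusted p = 0.198, edgeR). Their summed level was 7057 to 13077 CPM in CF and 6720 to 10842 CPM in non-CF, and their part in the result was not tested. Over the 23 libraries ATP6V1B1 had a median r of 0.26 with them, 0.31 with 17 other intercalated cell genes, 0.043 with 12 principal cell and connecting tubule genes and -0.023 with all genes tested. The direction is that of the labels, which CFTR RNA goes against.

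ATP6V1C2, a form of the C subunit that joins the V1 sector to the membrane sector, lay in the other direction for CF against non-CF. It was at 37.9 to 48.1 CPM in libraries labelled WT (median 42.0), at 34.6 to 52.4 CPM in those labelled HET (median 45.1) and at 26.7 to 44.3 CPM in those labelled CF (median 35.3). The CF libraries lay low, 10 of 11 under the non-CF median and 4 of 11 under the lowest non-CF library. The mean was 35.0 ± 4.86 CPM (SD, n = 11) for CF and 43.3 ± 5.73 CPM (SD, n = 12) for non-CF, and the log2 fold change was -0.31 (SE 0.082, adjusted p = 0.0829, edgeR). Among the 10 later-numbered pigs it was at 32.8 to 39.3 CPM for CF (n = 5) and 40.7 to 52.4 CPM for non-CF (n = 5). The log2 fold change there was -0.42 (adjusted p = 0.022, edgeR, where 2.27% of all genes passed). Against HET alone in that set, with HET at 50.0 to 52.4 CPM (n = 3), it was -0.50 (SE 0.090, adjusted p = 0.0138, edgeR, where 2.42% of all genes passed), beside -0.16 (SE 0.13, adjusted p = 0.993) in the earlier set. Among the earlier-numbered pigs it was -0.22 (adjusted p = 0.544), and the difference between the sets did not pass the test of an interaction (-0.21, SE 0.14, adjusted p = 0.646). Whether ATP6V1C2 passed the threshold in all libraries depended on the setting. The adjusted p was 0.027 by DESeq2, 0.037 with upper-quartile normalization, 0.049 with the number set as a term, 0.040 without HET15 and 0.046 without CF1. It stayed above the threshold at 0.0955 by limma-voom, 0.117 by the Mann-Whitney U test and 0.0644 with EIF1AY as a covariate. With the erythroid level as a covariate it was 0.382, at a log2 fold change of -0.25 (SE 0.10).

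Most of the loop of Henle and distal convoluted tubule genes lay on the same side as ATP6V1C2, and their part in the result was not tested. Of 7 such genes 0 passed edgeR's test for CF against non-CF (3 with an unadjusted p under 0.05, 0 called by limma-voom and 3 by DESeq2), 6 were lower and 1 higher, and their summed level was 1173 to 1843 CPM in CF against 1223 to 2309 CPM in non-CF. The log2 fold changes were -1.40 for CALB1 (calbindin of the distal convoluted and connecting tubule), -0.64 for SLC12A3 (the sodium chloride cotransporter) and -0.28 for SLC12A1 (the cotransporter of the thick ascending limb). The gene that lay higher was UMOD (uromodulin of the thick ascending limb), at 0.28 (SE 0.19, adjusted p = 0.544, edgeR). Over the 23 libraries ATP6V1C2 had a median r of 0.58 with these 7 genes, against -0.041 with all genes tested. The relation was not particular to them, since its median r was 0.51 with 19 other pump genes. It was 0.16 with the other 9 members and 0.084 with 17 other intercalated cell genes.

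For CF against non-CF the other members of the pump differed less. ATP6V0A4, the kidney form of the large membrane subunit, had medians of 47.5 CPM in WT (37.4 to 58.9), 58.4 CPM in HET (47.0 to 68.0) and 54.0 CPM in CF (35.8 to 67.8). ATP6V0D2, a d subunit between the sectors, had medians of 17.8 CPM in WT (15.7 to 33.6), 24.7 CPM in HET (16.6 to 29.4) and 24 CPM in CF (16.2 to 30.1). ATP6V1G3, the kidney form of the G subunit of the V1 stalk, had medians of 5.88 CPM in WT (5.27 to 11.6), 8.90 CPM in HET (6.86 to 12.1) and 8.51 CPM in CF (4.13 to 10.8). For CF against non-CF the log2 fold changes were 0.034 (SE 0.099) for ATP6V0A4, 0.079 (SE 0.14) for ATP6V0D2 and -0.056 (SE 0.18) for ATP6V1G3, each smaller than its standard error.

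**Figure D2:**
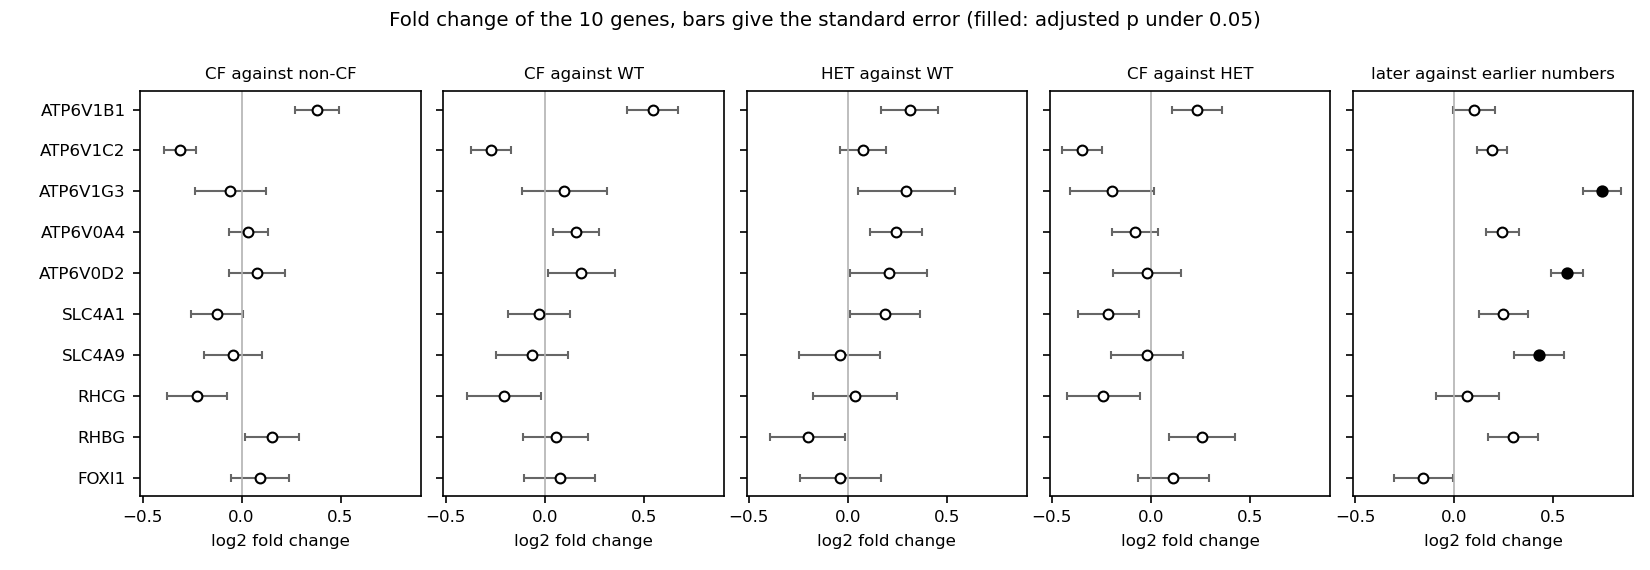
Log2 fold change (horizontal axes) of each gene (rows) in 5 comparisons, with bars for the standard error. Filled points have an adjusted p under 0.05 by edgeR and stand only in the comparison of later- with earlier-numbered pigs, for ATP6V1G3 (0.75), ATP6V0D2 (0.57) and SLC4A9 (0.43), while ATP6V1B1 and ATP6V1C2 lie farthest from 0 for CF against non-CF.

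None of the 10 genes passed the main edgeR test in all libraries for any pair of labels either. With the number set as a term ATP6V1B1 passed for CF against WT (adjusted p = 0.0479, edgeR, where 172 of 21434 genes passed). For CF against WT 0 of 10 genes passed edgeR's test (0.336% of all genes), 2 of 10 had an unadjusted p under 0.05 (14% of all genes), limma-voom called 0 (0.303% of all genes) and DESeq2 called ATP6V1B1 (3.21% of all genes). For HET against WT 0 of 10 passed (0.00467% of all genes) and 1 of 10 had an unadjusted p under 0.05 (8% of all genes). For CF against HET 0 of 10 passed (0% of all genes) and 1 of 10, ATP6V1C2, had an unadjusted p under 0.05 (9.83% of all genes), and it passed among later-numbered pigs alone, as given above. In the last 2 comparisons DESeq2 and limma-voom called 0 of 10 as well. DESeq2 called 0.114% of all genes for HET against WT and 0.265% for CF against HET, and limma-voom 0.00467% and 0%. Read on its own, HET against WT had 7 of 10 genes higher with a median log2 fold change of 0.13, beside -0.0043 for all genes, and a largest value of 0.31. Of 19 other pump genes 16 were higher (median 0.12), of 17 other intercalated cell genes 14 (median 0.14) and of 12 principal cell and connecting tubule genes 6 (median -0.021). For the 10 members the median was 0.084 with the number set as a term. Among earlier-numbered pigs alone 4 of 10 were higher with a median of -0.069, and among later-numbered ones 7 of 10 with a median of 0.16.

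SLC4A1, the exchanger AE1 that type A cells share with red blood cells, was at 17.9 to 33.9 CPM in libraries labelled WT (median 22.7), at 18.2 to 35.0 CPM in those labelled HET (median 27.7) and at 13.8 to 30.5 CPM in those labelled CF (median 24.4). The ranges overlapped almost wholly, and the log2 fold change for CF against non-CF was -0.12 (SE 0.13, adjusted p = 0.736, edgeR). Among later-numbered pigs alone it was -0.27 (SE 0.13, adjusted p = 0.309, edgeR), and -0.38 (SE 0.14, adjusted p = 0.188, edgeR) for CF against HET, beside 0.0044 (SE 0.18) and 0.0067 (SE 0.23) among earlier-numbered ones. In all libraries it was 0.086 (SE 0.16) with the level of erythroid genes as a covariate. The mean log2 CPM of 16 erythroid genes was 0.35 to 1.15 in CF and 0.69 to 1.35 in non-CF libraries, and of 15 such genes tested 12 were lower and 3 higher in CF, 0 of them called by edgeR or limma-voom (6 at an unadjusted p under 0.05) and 3 by DESeq2.

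The transcript models of SLC4A1 differ at their starts, as the red cell and kidney forms of AE1 do. The model with the upstream start has 20 exons and codes for 924 residues, and the model with the internal start, 4164 bases downstream, has 18 exons and codes for 853. They share 3413 bases, and what tells them apart is 295 bases before the internal start and 1070 bases at the 3′ end for the longer model and 109 bases for the shorter, so the split made by kallisto rests in part on the 3′ end. Both models were present in every library. The model with the upstream start was at 1.70 to 4.91 TPM and that with the internal start at 1.83 to 4.65 TPM, and the internal one made up 53.1% ± 6.23 of their sum (SD, n = 23). By label the internal share was 50.4% to 69.3% in WT (median 58.4%), 41.3% to 59.0% in HET (median 52.0%) and 43.6% to 58.4% in CF (median 50.6%). WT shares lay high, with 5 of 11 CF libraries under the lowest WT library and 10 of 11 under the WT median, and no test was run on the shares. Across the 23 libraries neither model followed the erythroid level past the threshold. Pearson's r was 0.23 for the upstream start (p = 0.291, adjusted p = 0.342, Spearman's rho 0.28, p = 0.19, adjusted p = 0.356) and 0.33 for the internal start (p = 0.126, adjusted p = 0.211, rho 0.33, p = 0.122, adjusted p = 0.304), by permutation tests adjusted over 20 relations. Without the 2 libraries farthest from the median these r were 0.21 and 0.28. For the upstream start r was -0.068 among earlier- and 0.72 among later-numbered pigs, and for the internal start 0.18 and 0.57.

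**Figure D3:**
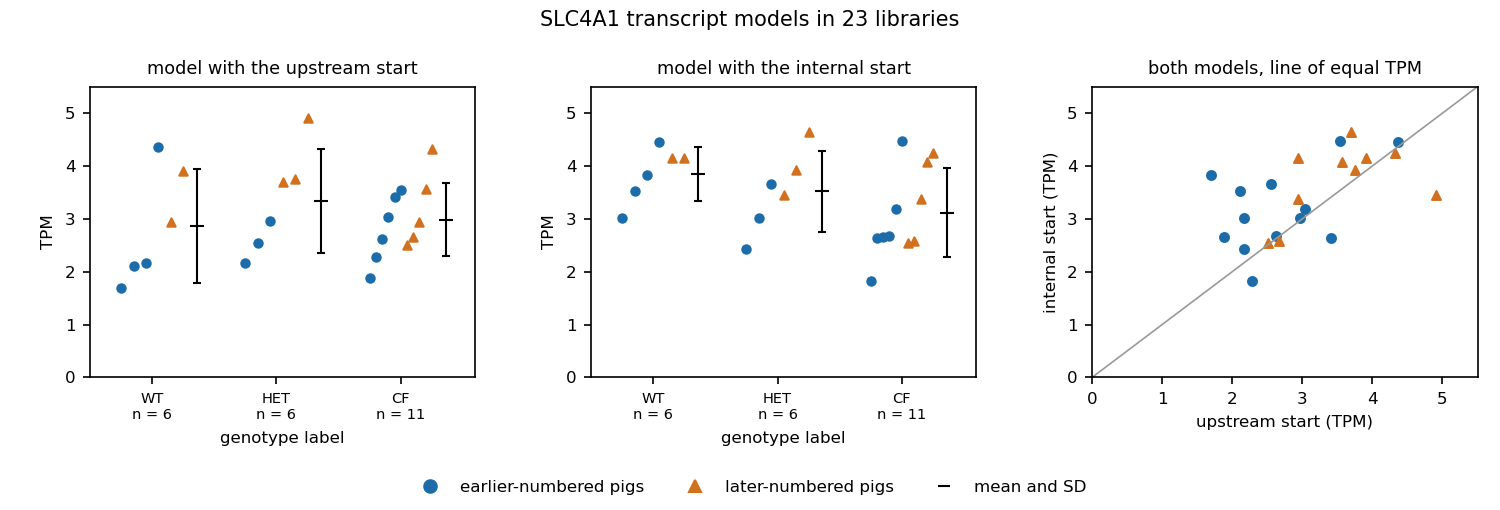
TPM of the SLC4A1 models with the upstream start (left) and the internal start (middle) in every library by genotype label, with mean and SD, and both plotted against each other with the line of equal TPM (right). Circles are earlier-numbered and triangles later-numbered pigs, and both models lie between 1.70 and 4.91 TPM in all 23 libraries.

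SLC4A9, the exchanger AE4 of the basolateral membrane of type B cells, had like medians under the labels, 29.4 CPM in WT (25.8 to 42.5), 27.4 CPM in HET (23.3 to 44.0) and 32.4 CPM in CF (17.1 to 43.5). Its log2 fold change for CF against non-CF was -0.042 (SE 0.15, adjusted p = 0.945, edgeR). The gene shares 567 exonic bases with a gene on the other strand, SLC4A1 shares 177 bases with another and ATP6V0A4 shares 84 with TMEM213. The library kit keeps the strand, but the strand setting used to count is not given in the sources used here, so reads of such partners may be mixed.

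The ammonia channels did not pass the test between labels in all libraries. RHCG, on the apical and basolateral membranes of collecting duct cells, was at 27.0 to 54.0 CPM in WT (median 34.1), at 19.3 to 43.8 CPM in HET (median 41.0) and at 13.7 to 41.1 CPM in CF (median 32.3). One library, CF6, was lowest of the 23 at 13.7 CPM, and WT12 was highest at 54.0 CPM. The log2 fold change for CF against non-CF was -0.22 (SE 0.15, adjusted p = 0.553, edgeR), with 8 of 11 CF libraries under the non-CF median. RHBG, a basolateral channel, was at 10.4 to 21.8 CPM in WT (median 13.6), at 7.99 to 15.8 CPM in HET (median 13.2) and at 11.0 to 20.4 CPM in CF (median 13.8), with a log2 fold change of 0.15 (SE 0.14, adjusted p = 0.685). With the erythroid level as a covariate RHBG had 0.32 (SE 0.17, adjusted p = 0.508, edgeR) for CF against non-CF and 0.61 (SE 0.21, adjusted p = 0.565, edgeR) for CF against HET, and RHCG had -0.11 (SE 0.19) for CF against non-CF. Among the later-numbered pigs alone RHBG had a log2 fold change of 0.36 (SE 0.12, unadjusted p = 0.00902, adjusted p = 0.129, edgeR) for CF against non-CF, and among the earlier-numbered ones -0.054 (SE 0.19, adjusted p = 0.959). RHCG had -0.31 (SE 0.14, unadjusted p = 0.0406, adjusted p = 0.261, edgeR) in the later and -0.15 (SE 0.24, adjusted p = 0.902) in the earlier set. Against HET alone the later-numbered CF libraries (n = 5) held RHCG at 24.7 to 36.4 CPM and the HET libraries (n = 3) at 40.7 to 43.8 CPM. The log2 fold change of RHCG there was -0.46 (SE 0.13, adjusted p = 0.0896, edgeR, where 2.42% of all genes passed), beside 0.021 (SE 0.30) in the earlier set.

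FOXI1, the factor that intercalated cells need to form and that drives pump and exchanger genes in them, had medians of 12.9 CPM in WT (8.79 to 14.3), 12 CPM in HET (7.20 to 14.3) and 13.3 CPM in CF (7.63 to 18.2). The CF libraries spanned a wider range, with 3 of 11 above the highest non-CF library, and the log2 fold change for CF against non-CF was 0.094 (SE 0.15, adjusted p = 0.845, edgeR). With the number sets pooled, FOXI1 did not move closely with the other members. Its median r with the other 9 was 0.17, beside 0.0048 with all genes tested, and was exceeded by 7 of them, led by ATP6V0A4 (0.50) and SLC4A1 (0.47). Within the sets the median r of FOXI1 with the other 9 was 0.32 among earlier- and 0.26 among later-numbered pigs. Over all 45 pairs of members the medians were 0.31 and 0.089. Over all genes tested, the 5 whose log2 CPM followed FOXI1 most closely over the 23 libraries were AFF1 (r = 0.74), LOC102164631 (0.70), LOC110260982 (0.69), EFNA5 (0.69) and TANGO6 (0.68). For ATP6V1B1 they were CLDN2 (0.86), PNPLA7 (0.84), CRY2 (0.83), TMEM248 (0.82) and DIRAS3 (0.82), and CLDN2, a claudin of the proximal tubule, had 0.86 among earlier- and 0.88 among later-numbered pigs. These points share libraries and the largest of many r are given, so they are a description.

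Each of the 5 pump subunits has a form used in most cells, and the part taken by the form enriched in intercalated cells in their summed TPM differed widely between subunits. A single counterpart was summed with each member, and bulk RNA does not tell which cells the transcripts came from. ATP6V1B1 made up 79.1% ± 4.03 of ATP6V1B1 and ATP6V1B2 (SD, n = 23), ATP6V1C2 44.6% ± 3.55 of ATP6V1C2 and ATP6V1C1, and ATP6V0A4 33.1% ± 4.85 of ATP6V0A4 and ATP6V0A1. ATP6V0D2 made up 11.3% ± 2.03 of ATP6V0D2 and ATP6V0D1, and ATP6V1G3 7.07% ± 1.53 of ATP6V1G3 and ATP6V1G1. The order of the subunits was thus set by the counterpart as well as by the member, since ATP6V1B2 was at 20.6 TPM and ATP6V1G1 at 173 TPM on average.

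By label, the B1 share lay higher and the C2 share lower in CF than in non-CF, and no test was run on the shares. The ATP6V1B1 share was 69.3% to 79.6% in WT, 76.1% to 83.8% in HET and 75.9% to 86.3% in CF, and its mean was 4.70 percentage points higher in CF than in non-CF, with 10 of 11 CF libraries above the non-CF median. The ATP6V1C2 share was 43.6% to 51.2% in WT, 44.4% to 48.6% in HET and 37.7% to 46.4% in CF. Its mean was 5 percentage points lower in CF, with 11 of 11 CF libraries under the non-CF median and 8 of 11 under the lowest non-CF library. The counterparts themselves lay close together, at 20.1 ± 1.54 TPM in CF and 21.1 ± 2.25 TPM in non-CF for ATP6V1B2, and at 23 ± 3.38 TPM and 23.8 ± 4.69 TPM for ATP6V1C1. The shares of ATP6V0A4, ATP6V0D2 and ATP6V1G3 differed by 2.09 percentage points or less between CF and non-CF.

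**Figure D4:**
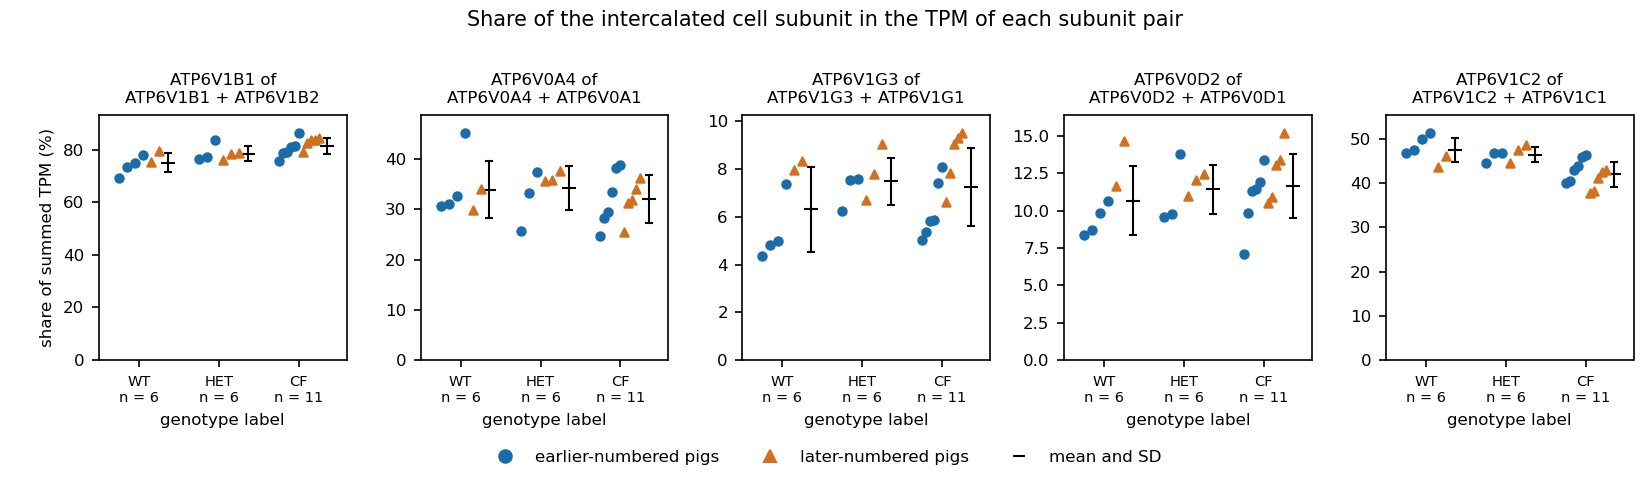
Share in percent (vertical axes) of the form enriched in intercalated cells in the summed TPM of each subunit pair, in every library by genotype label, with mean and SD. Circles are earlier-numbered and triangles later-numbered pigs. The ATP6V1C2 share reached 37.7% in the CF group, and 8 of 11 CF libraries lay under the lowest of the 12 non-CF libraries (43.6%).

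The clearest separation in these genes was by pig number. Of the 10 genes 3 passed edgeR's test between later- and earlier-numbered pigs, all higher in the later ones, where 9.38% of the 22129 genes tested passed and 5.1% passed as higher, and 6 of 10 had an unadjusted p under 0.05 (26% of all genes). DESeq2 and limma-voom each called 3 as well, where they called 12.7% and 9.22% of all genes. In all, 9 of 10 genes were higher in later-numbered pigs, and their median log2 fold change was 0.25, beside -0.0017 for all genes. This shift was not particular to them. The median was 0.24 for proximal tubule genes (7 of 8 higher) and 0.18 for other pump genes (14 of 19 higher). It was 0.16 for other intercalated cell genes (14 of 17 higher), 0.17 for loop of Henle and distal convoluted tubule genes and 0.11 for podocyte genes. Principal cell and connecting tubule genes had -0.15, macrophage genes -0.17 and erythroid genes -0.090. The sets were drawn with the separation of the libraries known, so the comparison is a description of the sets.

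ATP6V1G3 was at 4.13 to 8.51 CPM in the 13 earlier-numbered pigs (median 6.11) and at 9.49 to 12.1 CPM in the 10 later-numbered ones (median 10.4). The log2 fold change was 0.75 (SE 0.095, adjusted p = 9.33e-05, edgeR). ATP6V0D2 was at 15.7 to 24.1 CPM in the earlier-numbered pigs (median 18.5) and at 24.8 to 33.6 CPM in the later-numbered ones (median 29.2), with a log2 fold change of 0.57 (SE 0.082, adjusted p = 0.00035, edgeR). SLC4A9 was at 17.1 to 42.5 CPM (median 26.9) and 26.4 to 44.0 CPM (median 36.4), ranges that overlapped, with a log2 fold change of 0.43 (SE 0.13, adjusted p = 0.0342). The SLC4A9 call was lost, with an adjusted p of 0.052 to 0.076, without any of WT12, WT16, WT23, HET13, HET14, HET15, HET19, HET20, CF1, CF2, CF8, CF9, CF10 or CF11, and with upper-quartile normalization (0.066). ATP6V0A4 was at 35.8 to 67.8 CPM and 51.7 to 68.0 CPM, with all 10 later-numbered pigs above the earlier median and a log2 fold change of 0.24 (SE 0.084, adjusted p = 0.0656). Its adjusted p was 0.026 without CF5, that of ATP6V1C2 was 0.027 without CF1 and that of RHBG 0.045 without WT12. FOXI1 alone was lower in the later-numbered pigs (-0.16, SE 0.15, adjusted p = 0.562). In no gene of the 10 did the CF difference change between the sets past the threshold by edgeR (0 of 10, where 0.0185% of all genes did, 0 of 10 at an unadjusted p under 0.05 beside 10.3% of all genes, and 0 by DESeq2 or limma-voom, which called 0.728% and 0.0139% of all genes). A count of 0 here does not show that the CF differences were alike in both sets.

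Other genes of the pump and of intercalated cells were read from lists. Of 19 other pump genes 0 passed for CF against non-CF (edgeR, with 1 at an unadjusted p under 0.05, and 0 by DESeq2 and limma-voom), and their median log2 fold change was -0.015. The smallest p was that of ATP6V1F, a V1 subunit (-0.22, SE 0.094, adjusted p = 0.297). Between the number sets 7 of the 19 were called, all higher in later-numbered pigs (5.1% of all genes), at 0.35 (SE 0.077) for ATP6V1D, 0.31 (SE 0.070) for ATP6V1C1, 0.32 (SE 0.088) for ATP6V1G1, 0.30 (SE 0.075) for ATP6AP2 (the accessory subunit also named prorenin receptor), 0.29 (SE 0.080) for ATP6V0B, 0.29 (SE 0.072) for ATP6V1E1 and 0.28 (SE 0.076) for ATP6V0D1. ATP6V1B2, the counterpart of ATP6V1B1, had -0.0086 (SE 0.062) in that comparison.

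Of 17 other genes of intercalated cells 0 passed for CF against non-CF (edgeR, with 2 at an unadjusted p under 0.05, and 0 by DESeq2 and limma-voom). Those 2 were AQP6, a channel of type A cell vesicles (0.37, SE 0.15, adjusted p = 0.267), and ATP12A, a proton potassium pump (0.51, SE 0.24, adjusted p = 0.356). SLC26A4, the pendrin exchanger of type B cells, had -0.30 (SE 0.21, adjusted p = 0.582). In later-numbered pigs 3 of 17 were called and higher (5.1% of all genes), SLC26A7, a chloride bicarbonate exchanger of type A cells (0.51, SE 0.088, adjusted p = 0.0015), OXGR1, the receptor for 2-oxoglutarate (0.89, SE 0.14, adjusted p = 0.00079), and DMRT2, a transcription factor (0.47, SE 0.14, adjusted p = 0.0371). Of 12 principal cell and connecting tubule genes 3 were called in that comparison, all lower (4.27% of all genes), AQP2 (-0.62, SE 0.20), FXYD4 (-0.85, SE 0.23) and GATA3 (-0.38, SE 0.12). The summed level of the 12 was 392 to 655 CPM in earlier- and 446 to 583 CPM in later-numbered pigs, that of the 10 members 326 to 624 and 432 to 580 CPM, and the part of the neighbouring cells in the member values was not tested.

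The members were compared with each other across pigs. Of their 45 pairs 39 had a positive Pearson's r of log2 CPM over the 23 libraries, and the median r was 0.32. The number sets are pooled in these values. Among the 13 earlier-numbered pigs 32 of 45 pairs were positive with a median of 0.31, and among the 10 later-numbered ones 25 of 45 with a median of 0.089. ATP6V1B1 and ATP6V0A4, whose products sit in one pump and whose human mutations give one disease, had r = 0.73 (p = 0.00011, adjusted p = 0.0018) and rho = 0.64 (p = 0.00122, adjusted p = 0.0274) by permutation tests over 45 pairs, and r = 0.65 without the 2 libraries farthest from the median. That relation was strong in earlier-numbered pigs (r = 0.89) and weak in later-numbered ones (r = 0.22). SLC4A1 and RHCG had r = 0.73 (p = 0.00012, adjusted p = 0.0018) and rho = 0.50 (p = 0.0154, adjusted p = 0.085), 0.58 without the 2 farthest libraries, and were the only one of the 45 pairs above 0.5 in both number sets (0.76 and 0.72). ATP6V1G3 and ATP6V0D2 split into separate clusters by number set, so no pooled r is given for them, and within the sets they had r = 0.49 and r = 0.33. In the later-numbered pigs ATP6V1C2 had r = -0.66 with ATP6V1B1 and 0.77 with RHCG, and RHBG had r = 0.88 with ATP6V1B1, while in the earlier-numbered pigs these were -0.20, 0.26 and 0.24. With 10 or 13 libraries in a set such values are imprecise, and the differences between the sets were not tested.

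**Figure D5:**
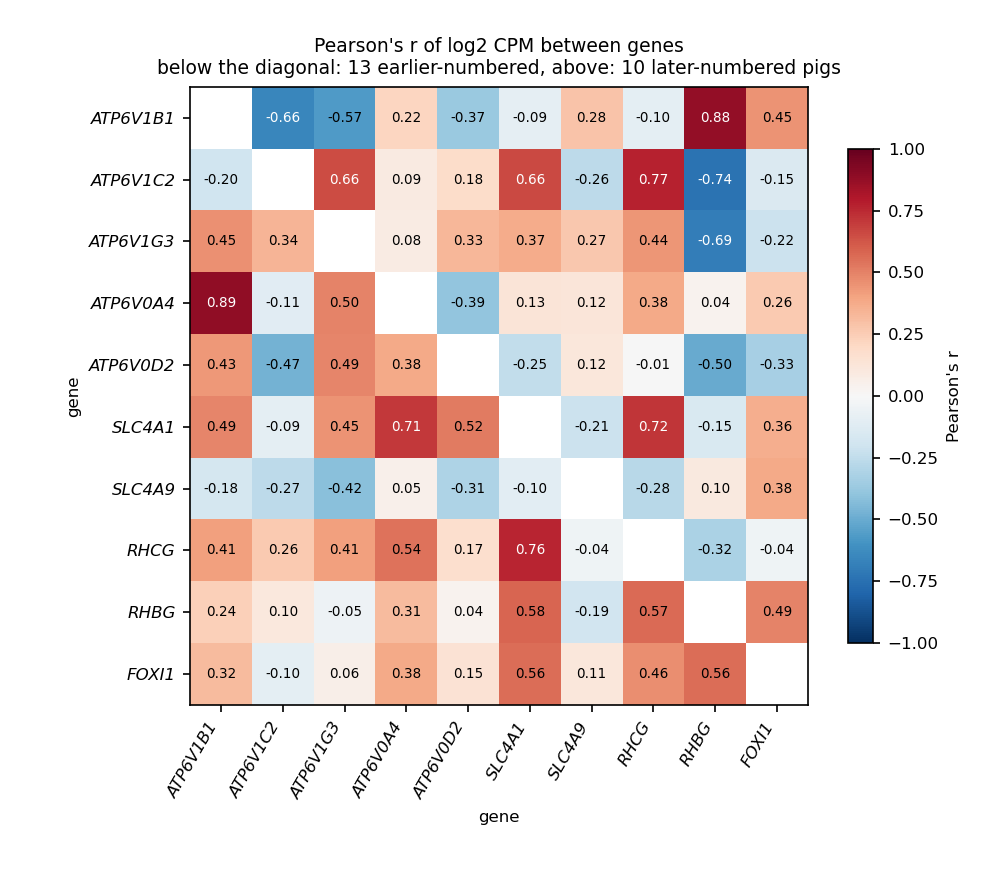
Pearson's r of log2 CPM between each pair of the 10 genes (both axes), among the 13 earlier-numbered pigs below the diagonal and the 10 later-numbered pigs above it, with the value in each cell. The pair of SLC4A1 and RHCG is above 0.5 on both sides (0.76 and 0.72), while ATP6V1B1 and ATP6V0A4 are at 0.89 below and 0.22 above the diagonal.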

How the data were processed

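Kidney cortex RNA of 23 newborn pigs (11 labelled CF, 6 HET and 6 WT) was analysed. The authors pseudoaligned reads of stranded total RNA libraries to pig RefSeq transcripts (Sscrofa11.1) with kallisto, and deposited an estimated count and a TPM value for each of 77689 transcripts in each library. The estimated counts deposited were not normalized, and the TPM values deposited are scaled to transcript length and library. Whether kallisto was run with a strand setting is not given in the sources used here.

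Estimated counts were summed to 26687 gene symbols and rounded, since 64% of transcript values were not whole. Libraries held 32901281 to 52952273 estimated counts, so 3 counts equal 0.0567 to 0.0912 CPM (counting error only). Main tests used edgeR 4.0.16 in R 4.3.3, with TMM scaling, low counts removed by filterByExpr, quasi-likelihood F tests and Benjamini-Hochberg adjustment over every gene tested, at 0.05. CF against non-CF was fitted by itself (20921 genes), the 3 labels together (21434 genes), the number sets with the label as a term (22129 genes) and CF by number set with an interaction (21582 genes). Standard errors are the log2 fold change over the root of the F statistic. Log2 CPM used a prior count of 2, and correlations 100000 permutations.

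The 10 members, the other gene lists and the number sets were chosen with earlier results of these data known. Genes named were the members and CFTR. From each other list they were chosen among the 5 with the smallest p for CF against non-CF, those with an adjusted p under 0.05 in any comparison and the 2 most abundant. For FOXI1 and ATP6V1B1 they were the 5 genes with the largest r. ATP6V1B2 was named as a counterpart and TMEM213 for its overlap, after their values were seen. CA2 and ATP6V0E2 were not matched by symbol, and some items are not reported here.

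Alternatives were DESeq2 1.42.0, limma-voom (limma 3.58.1), other scalings and filters, EIF1AY or the mean level of erythroid genes as a covariate, the number set as a term or each set alone, the Mann-Whitney U test, and fits without single libraries. The fits were tested on simulated counts with known changes. Python 3.11.15, numpy 2.4.6, scipy 1.17.1, pandas 2.3.3, pysam 0.24.0 and matplotlib 3.10.9 were used otherwise. Raw reads were not analysed here.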

Additional observations from a re-analysis of the deposited data

Results flagged for a closer look

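Within each genotype label of 6 libraries, the CPM of each of the 10 genes, the shares of the subunit pairs, and the TPM and share of the SLC4A1 models were searched for a library standing apart by Dixon's test. Of 36 groups tested 4 held one, where chance gives about 1 in 20. RHCG was at 54.0 CPM in WT12, against 27.0 to 34.3 CPM in the other WT libraries. The ATP6V0A4 share of its pair was 45.1% in the same library, WT12, against 29.8% to 34.1% in the other WT libraries. The ATP6V1B1 share was 83.8% in HET15, against 76.1% to 78.9% in the other HET libraries. The ATP6V0A4 share was 25.7% in HET14, against 33.1% to 37.5% in the other HET libraries. The cause was not tested.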

How the results depend on the processing

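No paired analysis was possible because the pig numbers are not shared between the labels. Under alternatives other than leaving out a library, 595 values of single genes kept direction and side of the threshold, 36 changed sign, 8 gained and 1 lost the call, and the cause was not tested. By DESeq2 483 genes were called for CF against non-CF (73 by edgeR), 579 (72) when WT was the reference, 29 (1) with HET set against WT, 57 (0) with HET as the reference and 142 (4) for the interaction. By limma-voom 46 were called for CF against non-CF, and the ATP6V1B1 interaction was 0.0030. By the Mann-Whitney U test the counts were 46 for CF against non-CF, 0 for CF against WT and 0 for HET against WT. Upper-quartile scaling gave 139 calls for CF against WT, 4 against HET and 10 for the interaction, with RHCG at -0.0043 for HET against WT and the ATP6V1B1 interaction at 0.031. Without a filter 1 gene was called for CF against HET. With EIF1AY as a covariate the calls were 45 for CF against non-CF, 1 for CF against HET and 7 for the interaction, and HET against WT turned to -0.017 for ATP6V1C2, 0.028 for SLC4A9, 0.022 for FOXI1 and -0.031 for RHCG. With the erythroid level as a covariate the calls were 1 for CF against non-CF, 12 for CF against WT, 2 for HET against WT, 2 when CF was set against HET and 21 for the interaction. SLC4A1 then turned to 0.086 for CF against non-CF, 0.10 against WT and 0.045 against HET, ATP6V1G3 to 0.012 for CF against non-CF, SLC4A9 to 0.091 and RHCG to -0.053 for HET against WT, and the ATP6V1B1 interaction to 0.0041. With the number set as a term the calls were 148 for CF against non-CF, 172 against WT and 4 against HET, RHBG was -0.0046 for CF against WT and ATP6V0D2 0.0047 for CF against HET.

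Among earlier-numbered pigs alone 0 genes were called for CF against non-CF, 7 for CF against WT and 17 for HET against WT. There SLC4A1 was 0.0044 and RHBG -0.054 for CF against non-CF, RHBG -0.20 for CF against WT, ATP6V1C2 -0.12, SLC4A1 -0.017 and RHCG -0.30 for HET against WT, and SLC4A1 0.0067 and RHCG 0.021 for CF against HET. Among later-numbered pigs alone 473 were called for CF against non-CF, 17 for HET against WT and 525 for CF against HET. There ATP6V0A4 was -0.045, ATP6V0D2 -0.011 and SLC4A9 0.071 for CF against non-CF, ATP6V1G3 -0.14, ATP6V0D2 -0.040 and SLC4A9 0.12 for CF against WT, ATP6V1G3 -0.0043, ATP6V0D2 -0.048, SLC4A9 0.087 and FOXI1 0.15 for HET against WT, and ATP6V0D2 0.0078 and SLC4A9 0.037 for CF against HET. The median r among the genes was 0.089 in later-numbered pigs and 0.36 on log2(TPM + 0.1).

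When single libraries were left out the calls ran from 17 to 203 for CF against non-CF, 20 to 187 for CF against WT, 1 to 3 for HET against WT, 0 to 3 when CF was set against HET, 1130 to 2465 for later against earlier numbers and 1 to 72 for the interaction, and the median r from 0.26 to 0.37. The genes that changed sign ran, for CF against non-CF, from -0.0034 to 0.076 (ATP6V0A4), -0.11 to 0.0074 (ATP6V1G3) and -0.11 to 0.018 (SLC4A9). For CF against WT they ran from -0.10 to 0.10 (SLC4A1), -0.13 to 0.037 (SLC4A9) and -0.031 to 0.21 (RHBG). For HET against WT they ran from -0.16 to 0.058 (SLC4A9), -0.10 to 0.069 (FOXI1) and -0.029 to 0.20 (RHCG). For CF against HET they ran from -0.11 to 0.039 (ATP6V0D2) and -0.097 to 0.10 (SLC4A9), for later against earlier numbers from -0.018 to 0.11 (RHCG), and for the interaction from -0.11 to 0.12 (ATP6V1B1) and -0.25 to 0.049 (FOXI1). Genotype labels that CFTR RNA goes against, bulk tissue and a number split without stated meaning limit every comparison.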

Other observations

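Among the lists of other cell types, 0 of 9 macrophage genes, 0 of 6 podocyte genes, 0 of 12 principal cell genes and 0 of 8 proximal tubule genes were called for CF against non-CF by edgeR (0.349% of all genes). In each list 1 had an unadjusted p under 0.05 (13.7% of all genes) and 0 were called by DESeq2 or limma-voom (2.41% and 0.22% of all genes). Of the 8 proximal tubule genes 7 lay higher and 1 lower. Between the number sets 2 of 8 proximal tubule genes and 1 of 7 loop of Henle and distal convoluted tubule genes were called by edgeR, all higher in later-numbered pigs (5.1% of all genes). DESeq2 and limma-voom each called 3 of the 8 and 1 of the 7, all higher, where they called 12.7% and 9.22% of all genes in either direction. The summed level of the proximal tubule genes was 6720 to 13077 CPM in earlier- and 8135 to 11874 CPM in later-numbered pigs.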
